A study of Mus musculus with 4 samples.

Results

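The leukocyte integrins and the adhesion molecules they meet were followed in cultured mouse macrophages through 10 genes, chosen by name: the CD11 alpha chains Itgam, Itgax, Itgal and Itgad, their common beta chain Itgb2, the chains Itga4 and Itgb7, the ligands Icam1 and Vcam1, and Selplg. These names matched 11 of the 34745 rows of the deposited expression table, because the symbol Itgam stood on 2 rows. The 4 libraries were 2 from macrophages labelled WT and 2 from macrophages labelled G3bp1mac-/- (called KO below), all unstimulated as far as the labels say and grown in DMEM with fetal bovine serum. By the study's description the macrophages were derived from bone marrow, the WT animals carried floxed G3bp1 (G3bp1 f/f), and the KO animals carried the same alleles with Cre expressed from Lyz2, a promoter active in monocytes, macrophages and granulocytes. The age and sex of the donor animals, and whether each library came from its own animal, were not given in the sources used here, which state an age and sex for purchased mice only, so p-values measure only the spread between these samples, which may be technical.

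An integrin is a pair of 1 alpha and 1 beta chain that spans the membrane and binds ligand outside the cell once talins and kindlins have engaged the beta tail inside it. The beta2 integrins are restricted to leukocytes: Itgal pairs with Itgb2 to form LFA-1, Itgam to form Mac-1 (complement receptor 3), and Itgax to form complement receptor 4, and these serve firm adhesion, cell migration and the uptake of complement-coated particles. Itga4 pairs with Itgb1 or Itgb7 and binds Vcam1, while Icam1 is a ligand of LFA-1 and Mac-1, and Selplg (PSGL-1) carries the sugars by which leukocytes roll on selectins. Expression of Icam1 and Vcam1 is well known to be inducible by inflammatory signals through NF-kB, and expression of Itgam in myeloid cells depends on the factor PU.1.

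Total counts ranged from 16724241 to 19747909 per library, and 12418 genes had enough counts to be tested. Of 8 macrophage markers, 8 were tested, with a summed level of 20831 to 26277 CPM (counts scaled to library size, with TMM factors between libraries). Of 10 neutrophil markers, 4 were tested, with a sum of 76.4 and 102 CPM in WT and 67.5 and 73.9 CPM in KO. Most of this sum was Csf3r, at 48.1 and 76.3 CPM in WT and 59.6 and 62.1 CPM in KO. Of the 10, 4 were lower and 0 higher in both KO libraries, and Mpo and Elane were at 0 in every library. Among the lower ones, S100a9 stood at 5.61 and 5.15 CPM in WT and 0.11 and 0.05 CPM in KO. Retnlg stood at 6.10 and 4.46 CPM in WT and 0.16 and 0.46 CPM in KO. Mast cell and basophil markers summed to 75.3 and 72.0 CPM in WT and to 32.0 and 39.7 CPM in KO, with 4 of 7 lower in both KO libraries and Mcpt8 at 0. Stromal markers summed to 75.2 and 88.2 CPM in WT and to 328 and 302 CPM in KO, with 7 of 9 of them higher in both KO libraries. B cell markers summed to 21.5 and 22.5 CPM in WT and to 11.6 and 10.9 CPM in KO, with 5 of 5 lower. G3bp1 itself was counted at 104 and 180.4 CPM in WT and at 70.1 and 117 CPM in KO (log2 fold change -0.61 ± 0.40 SE, 2 libraries per group, adjusted p = 0.904, edgeR), and a count over the whole gene does not resolve the floxed exons.

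The promoter windows of Icam1 and Itgam are shown because these members carried the largest difference between libraries and the split between gene rows described next. They are RefSeq sequences of GRCm38.p6, plus strand, from 250 bases before to 50 bases after the annotated start. Capitals in the Icam1 window at chr9:21015690-21015989 mark a kB-type sequence (GGAAATTCC), and capitals in the Itgam window at chr7:128062390-128062689 mark the PU.1 core (GAGGAA) on either strand.
Icam1: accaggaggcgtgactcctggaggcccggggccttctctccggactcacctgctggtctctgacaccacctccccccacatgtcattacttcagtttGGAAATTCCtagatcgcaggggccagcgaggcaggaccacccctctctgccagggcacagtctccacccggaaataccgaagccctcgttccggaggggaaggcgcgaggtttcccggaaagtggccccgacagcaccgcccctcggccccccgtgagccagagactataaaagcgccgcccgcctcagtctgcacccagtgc
Itgam: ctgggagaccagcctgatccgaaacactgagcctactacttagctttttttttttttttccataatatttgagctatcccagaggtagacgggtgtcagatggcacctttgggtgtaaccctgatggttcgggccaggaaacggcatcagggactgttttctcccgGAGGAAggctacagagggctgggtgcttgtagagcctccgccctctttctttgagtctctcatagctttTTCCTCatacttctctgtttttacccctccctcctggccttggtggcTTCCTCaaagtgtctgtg
The kB letters started at position 98 of the Icam1 window and were held, on either strand, by 0.317% of 32851 such windows in the genome. An exact string is rare by its length alone, so this share does not measure enrichment. The PU.1 core matched 3 times in the Itgam window, once in that of Itgb7 and 0 times in that of Itgax, against 28.3% of all windows with at least 1 match. RefSeq windows were matched for 5 of the 10 genes (Itgam, Itgax, Itga4, Itgb7 and Icam1), and a match of letters is a description, not evidence of binding. The broader NF-kB consensus was searched by its standard degenerate form and matched in 0 of these 5 windows and in 4.51% of all windows.

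Between the genotypes, 0 of the 10 tested rows of the members were called at an adjusted p under 0.05 and a change of more than 2-fold, against 0.0% of all 12418 genes tested (edgeR quasi-likelihood test). DESeq2 called 0 of these rows and 1.46% of all tested genes, and edgeR's exact test called 0 of these rows and 1.84% of all tested genes. Of the rows, 1 (Itgam row 1, described below) had an unadjusted p under 0.05, where 6.63% of all tested genes did. The log2 fold changes of KO against WT were above 0 for 4 rows and below 0 for 6, with a median of -0.05 over the rows and 0.04 over all tested genes. In 2 rows, Itgam row 1 and Itgax, both KO values exceeded both WT values, and such separation was found for 20.0% of all tested genes. The opposite separation, with both KO values lowest, was found in 0 rows, against 16.9% of all tested genes. With 2 libraries per group, an exact permutation test cannot go below a two-sided p of 0.333, so no single value was tested in that way.

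**Figure D1:**
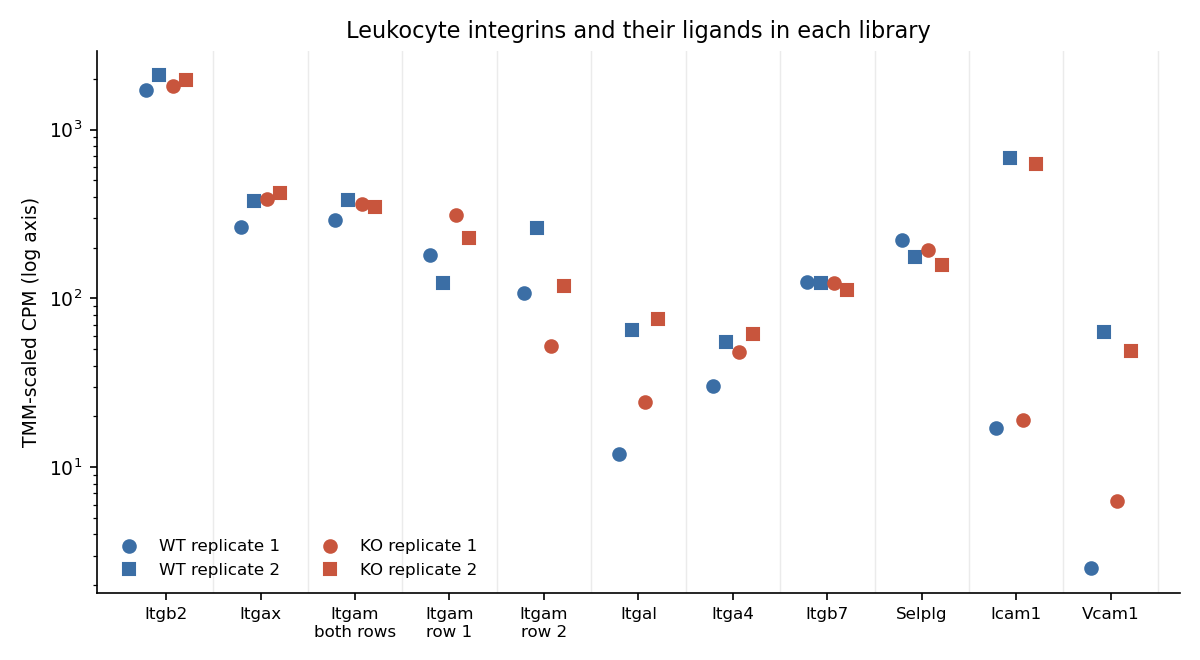
TMM-scaled CPM of each member (log axis) in the 2 WT (blue) and 2 KO (red) libraries, with circles for replicate 1 and squares for replicate 2. Icam1 lay at 17.0 and 19.2 CPM in the circles and at 683 and 627 CPM in the squares, whereas Itgb2, Itgb7 and Selplg lay close together in all 4 libraries.

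The libraries are numbered 1 and 2 within each genotype, and the labels do not say what the number marks. The members were therefore also compared by this number. Both libraries numbered 2 lay above both numbered 1 for 6 rows (Itgam row 2, Itgal, Itgb2, Itga4, Icam1 and Vcam1), as did 25.2% of all tested genes. The order was the opposite for 2 rows, Itgb7 and Selplg, and for 23.2% of all tested genes. A difference of more than 2-fold, higher in number 2 within both genotypes, was found for 4 rows (Itgam row 2, Itgal, Icam1 and Vcam1), where 4.36% of all tested genes had one. A fall of more than 2-fold in both genotypes was found for 0 rows, against 2.42% of all tested genes. Library number and everything that went with it (culture, day or animal) cannot be told apart here.

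**Figure D2:**
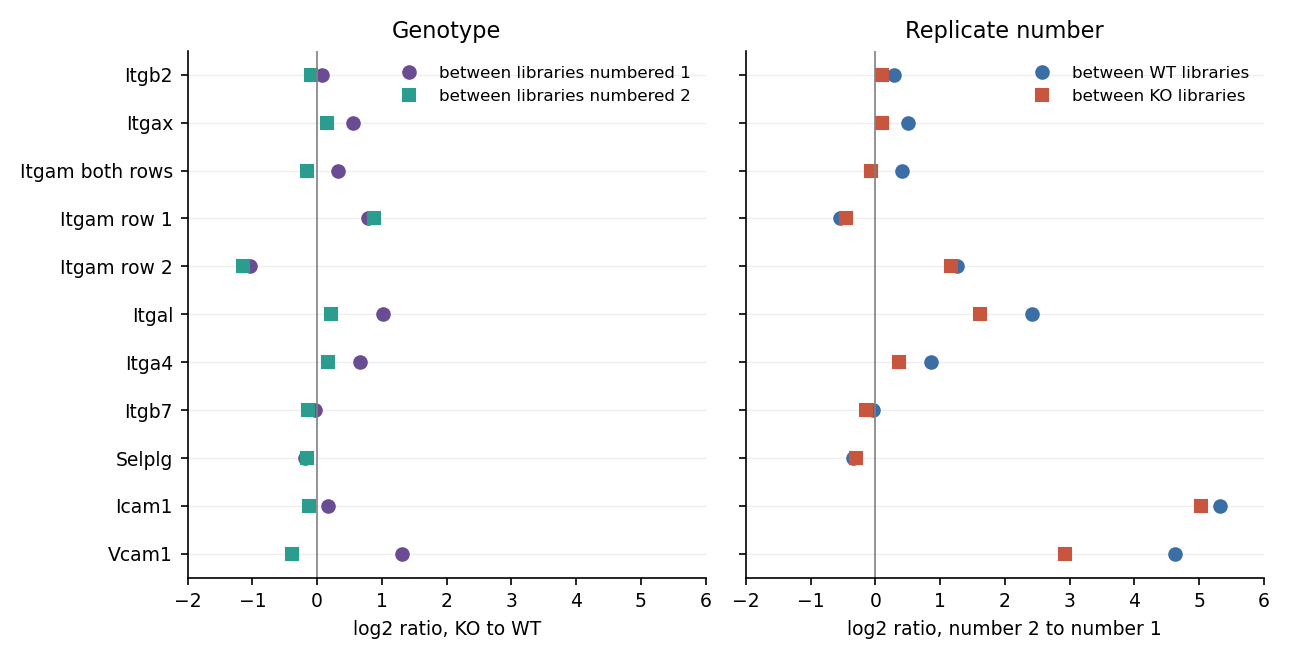
Log2 ratio between genotypes (KO over WT) at either replicate number (left) and between replicate numbers (2 over 1) in either genotype (right), per member, 1 point per pair of libraries. Genotype ratios lay between -1.14 and 1.31, while ratios between replicate numbers reached 5.32 for Icam1 and 4.63 for Vcam1.

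Itgb2, the beta chain common to the CD11 integrins, was the most abundant member per length. It was measured at 1715 and 2092 CPM in WT and at 1807 and 1952 CPM in KO, for means of 1903 ± 266 and 1879.7 ± 103 CPM (SD, n = 2 each). The genotypes overlapped, and the highest library exceeded the lowest by a log2 range of 0.29. The log2 fold change of KO against WT was -0.02 ± 0.21 (SE, 95% interval -0.55 to 0.51, adjusted p = 0.994, edgeR). The gene lies at chr10:77530252-77565708 on the plus strand (GRCm38, as for all positions given here).

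Itgax (CD11c), at chr7:128129547-128150657, was a main alpha chain beside Itgam. Its level was 266 and 376 CPM in WT and 388 and 418 CPM in KO. Both KO libraries were above both WT libraries, but WT replicate 2 lay close to KO replicate 1. The log2 fold change was 0.33 ± 0.27 (SE, 95% interval -0.35 to 1.01, adjusted p = 0.941, edgeR). Within number 1, KO stood 1.46-fold above WT, and within number 2 it stood 1.11-fold above (log2 values 0.55 and 0.15).

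Itgam (CD11b) was divided over 2 overlapping rows whose values differed between the genotypes in opposite directions. Row 1 (ENSMUSG00000030786) spans chr7:128062640-128118491 on the plus strand and row 2 (ENSMUSG00000108596, called Gm49368 in GENCODE release 21) spans chr7:128062683-128128160 on the same strand, ending 9669 bases further on. The exons of row 1 cover 5024 bases and those of row 2 cover 4803, of which 3450 are common to both, or 68.7% of row 1 and 71.8% of row 2. How the counting divided reads of the shared bases cannot be read from the table.

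Row 1 was counted 2936 and 1973 times in WT and 5784 and 4477 times in KO, or 181 and 124 CPM against 310.4 and 227 CPM. Both KO libraries were above both WT libraries, with log2 ratios of 0.78 and 0.88 within the replicate numbers. The fitted log2 fold change was 0.82 ± 0.31 (SE, 95% interval 0.03 to 1.61, unadjusted p = 0.0449, adjusted p = 0.725, edgeR). Row 2 went the other way within each replicate number: its WT counts were 1756 and 4161 and its KO counts 980 and 2325, or 108 and 261 CPM against 52.6 and 118 CPM. Here the genotypes overlapped, since WT replicate 1 lay between the KO libraries. The log2 ratios within the replicate numbers were -1.04 and -1.14, and the fitted log2 fold change was -1.11 ± 0.58 (SE, 95% interval -2.57 to 0.35, adjusted p = 0.852, edgeR).

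Summed over both rows, Itgam stood at 289 and 385 CPM in WT and at 363 and 346 CPM in KO. The KO libraries lay between the WT libraries, and the log2 fold change of the sum was 0.07 ± 0.25 (SE, 95% interval -0.57 to 0.71, adjusted p = 0.989, edgeR, a sum chosen after seeing the data). What differed was the division: row 2 held 37.4% (95% Wilson interval 36.1 to 38.8) of Itgam counts in WT replicate 1 and 67.8% (66.7 to 69.0) in WT replicate 2. In KO it held 14.5% (13.7 to 15.3) in replicate 1 and 34.2% (33.1 to 35.3) in replicate 2. Both KO shares lay below both WT shares, though KO replicate 2 was close to WT replicate 1, and within each genotype the share was higher in number 2. These intervals cover counting error only.

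**Figure D3:**
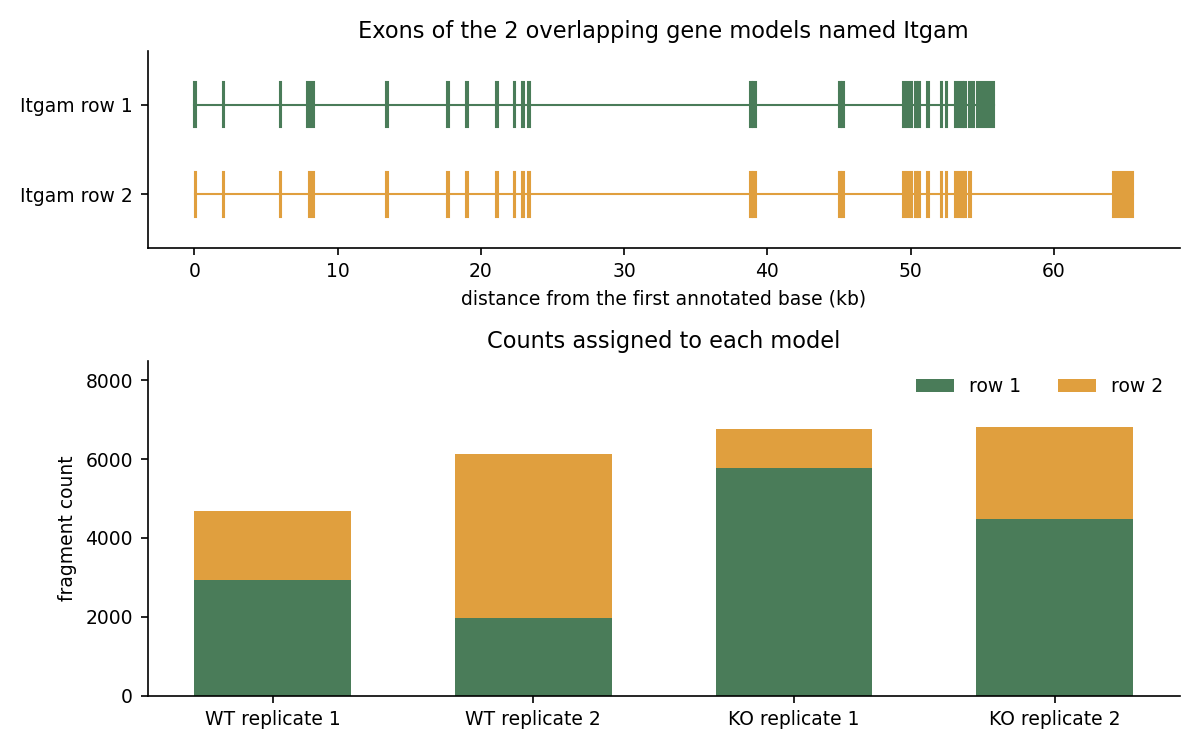
Top, exons (boxes) of the 2 gene models named Itgam against distance in kilobases from the first annotated base. Bottom, fragment counts assigned to row 1 (green) and row 2 (orange), stacked per library: the stacks total 4692 and 6134 in WT and 6764 and 6802 in KO, while row 2 had 4161 counts in WT replicate 2 and 980 in KO replicate 1.

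Itgal (CD11a) was low and differed between replicate numbers. It was measured at 12.0 and 64.6 CPM in WT and at 24.3 and 75.0 CPM in KO. Both libraries numbered 2 were above both numbered 1, by 5.36-fold within WT and 3.08-fold within KO, and the genotypes overlapped. The log2 fold change of KO against WT was 0.38 ± 0.89 (SE, 95% interval -1.88 to 2.63, adjusted p = 0.982, edgeR). KO exceeded WT 2.02-fold in the libraries numbered 1 and 1.16-fold in those numbered 2 (log2 values 1.01 and 0.22). LFA-1 is also abundant on lymphocytes, and the 9 T and NK cell markers summed to 3.51 CPM in either WT library and to 2.15 and 2.39 CPM in KO. Of these, 1 of 9 (Lck) was higher in both libraries numbered 2 than in both numbered 1 and 2 of 9 were lower, and the part of such cells in the Itgal values was not tested. Itgal lies at chr7:127296260-127335138, upstream of Itgam, Itgax and Itgad on the same chromosome and strand.

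Itgad (CD11d), a chain known from certain tissue macrophages, had 0 counts in all 4 libraries, which allows up to 0.152 to 0.188 CPM depending on the library. It was not tested. Itgae, the other alpha chain that pairs with Itgb7, had 1 count in KO replicate 1 and 0 in the other libraries.

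Per length, the beta2 message exceeded that of its alpha chains together. On the authors' FPKM scale Itgb2 stood at 351 and 422 in WT and at 432 and 417 in KO, and the alpha chains Itgam (both rows), Itgax and Itgal together at 92.5 and 136 in WT and at 143 and 140.2 in KO. The level of Itgb2 was thus 3.80 and 3.11 times that of the alpha chains in WT and 3.01 and 2.98 times in KO. Dividing counts by GENCODE exon lengths instead, a choice made after seeing the data, gave alpha chain sums of 0.206 and 0.244 of the Itgb2 level in WT and 0.266 and 0.263 in KO.

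Within the alpha chain sum, Itgax and Itgam held similar shares and Itgal a small one. By FPKM, Itgax made up 51.6% and 49.1% of the sum in WT and 56.8% and 56.0% in KO. Itgam made up 47.1% and 46.2% in WT and 41.2% and 38.3% in KO. On this scale the shares of both chains did not overlap between the genotypes, and the difference was not tested. On the CPM scale those of Itgax did not overlap either, whereas those of Itgam did, at 51.0% and 46.6% in WT and 46.8% and 41.2% in KO. The ratio of Itgax to Itgam was 1.10 and 1.06 in WT and 1.38 and 1.46 in KO by FPKM, and with GENCODE exon lengths it was 0.944 and 0.990 in WT and 1.11 and 1.25 in KO, so that which chain was higher in WT depended on the lengths used. Itgal made up 1.32% and 4.75% in WT and 2.0% and 5.66% in KO, following the replicate number.

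**Figure D4:**
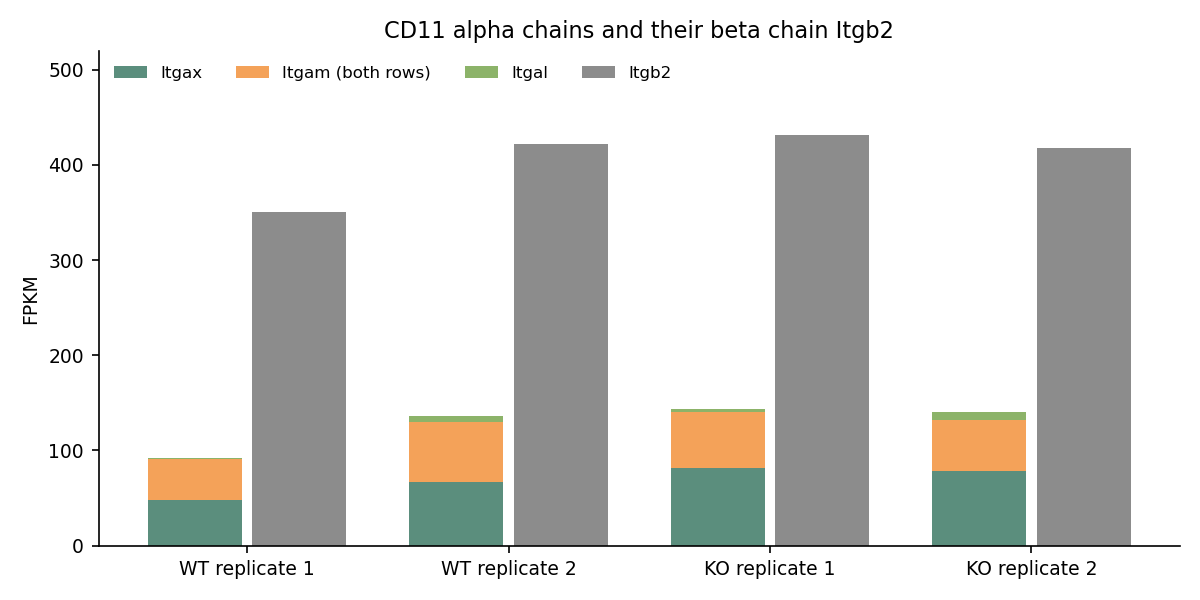
Authors' FPKM of the alpha chains Itgax, Itgam (both rows summed) and Itgal, stacked, beside FPKM of their beta chain Itgb2, 1 pair of bars per library. The stacks reach 92.5 and 136 in WT and 143 and 140.2 in KO, against 351 to 432 for Itgb2.

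Itga4, the alpha chain of the Vcam1 receptor, at chr2:79255426-79333123, was measured at 30.3 and 55.2 CPM in WT and at 48.1 and 61.7 CPM in KO. The genotypes overlapped and both libraries numbered 2 were highest. Its log2 fold change was 0.36 ± 0.36 (SE, 95% interval -0.55 to 1.27, adjusted p = 0.957, edgeR). The antisense neighbour Cerkl overlaps it and had 18 to 47 counts, against 491 to 1215 for Itga4.

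Itgb7, at chr15:102215995-102231935 on the minus strand, varied least. It stood at 126 and 123 CPM in WT and at 123 and 112 CPM in KO, with a log2 fold change of -0.08 ± 0.22 (SE, 95% interval -0.64 to 0.47, adjusted p = 0.982, edgeR). Its alternative partner for Itga4, the broadly expressed Itgb1, was measured at 793 and 1129 CPM in WT and at 972 and 1193 CPM in KO (log2 fold change 0.17 ± 0.27 SE, adjusted p = 0.971, edgeR). By FPKM, Itgb7 was 23.2 and 12.5 times as high as Itga4 in WT and 14.3 and 10.1 times in KO, and Itgb1 was in turn 3.12 to 5.28 times as high as Itgb7. The size of the difference depended on the division by length. By CPM, Itga4 stood at 0.241 and 0.449 of the Itgb7 level in WT and at 0.391 and 0.553 in KO. With GENCODE exon lengths it stood at 0.0478 and 0.0889 in WT and at 0.0774 and 0.110 in KO. The message of either beta chain therefore exceeded that of Itga4 in every library.

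Icam1, the immunoglobulin-family ligand of LFA-1 and Mac-1, showed the widest range of all members. It was counted 276 and 10879 times in WT and 357 and 12351 times in KO, or at 17.0 and 683 CPM against 19.2 and 627 CPM. Both libraries numbered 1 were low and both numbered 2 were high, by 40.1-fold within WT and 32.7-fold within KO, and the genotypes overlapped. Between genotypes the log2 ratio was 0.17 in the libraries numbered 1 and -0.12 in those numbered 2. The log2 fold change was -0.11 with an SE of 1.91 (95% interval -4.95 to 4.72, adjusted p = 0.995, edgeR), an interval that spans large differences in either direction. In both genotypes, 22 other tested genes had a ratio of number 2 to number 1 at least as high. The kB letters shown above lie in the promoter window of this gene, whose row spans chr9:21015960-21028797. The broader NF-kB consensus had no match in that window, and a part of NF-kB in these values was not tested.

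Vcam1, the ligand of the Itga4 integrins, followed the same order at lower level. It was measured at 2.53 and 63.5 CPM in WT and at 6.33 and 48.5 CPM in KO. The libraries numbered 2 were 24.8-fold higher within WT and 7.63-fold higher within KO, and the genotypes overlapped. Between genotypes the log2 ratio was 1.31 in the libraries numbered 1, on 41 and 118 counts, and -0.39 in those numbered 2. The log2 fold change was -0.27 ± 1.49 (SE, 95% interval -4.05 to 3.51, adjusted p = 0.990, edgeR), and 93 other tested genes had a ratio of number 2 to number 1 at least as high in both genotypes. Vcam1 is also expressed by stromal cells, and the sums of the 9 stromal markers are given above. Of these markers 1 of 9 (Pdgfrb) was higher in both libraries numbered 2 than in both numbered 1, and the part of stromal cells in the Vcam1 values was not tested. The endothelial markers, of another cell type known for Vcam1 and Icam1, summed to 6.35 and 4.33 CPM in WT and to 7.14 and 2.79 CPM in KO, with Tek, Cldn5 and Emcn at 0 in every library. In bulk RNA, fewer cells of a type and less RNA per cell cannot be told apart. The row spans chr3:116109949-116129688 on the minus strand.

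**Figure D5:**
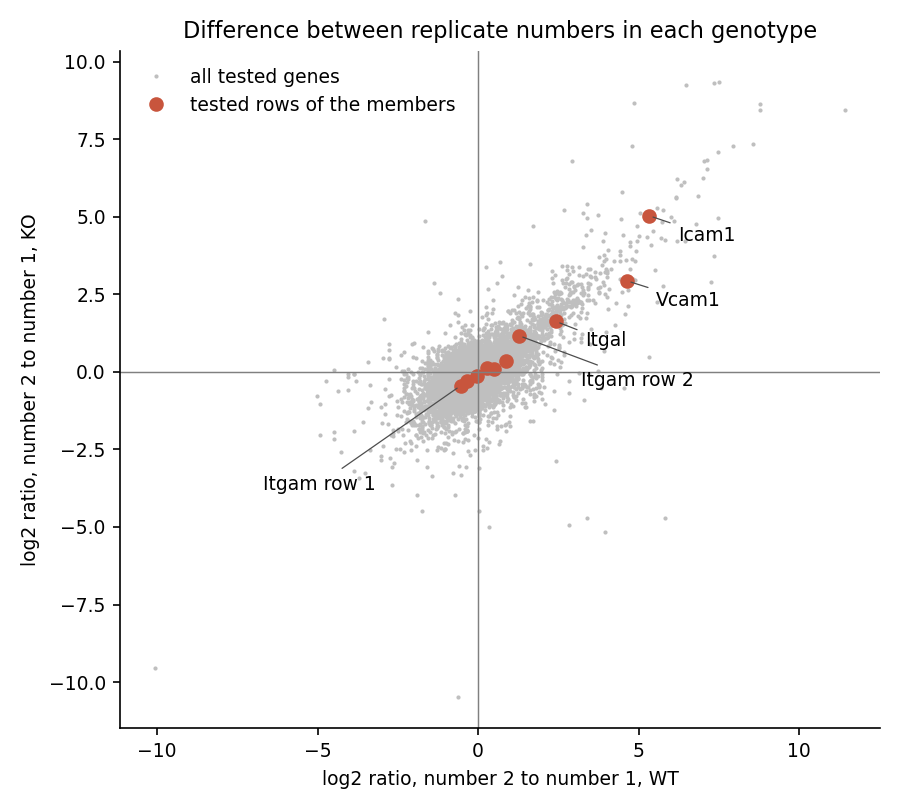
Log2 ratio of replicate number 2 to number 1 within KO (vertical) against the same ratio within WT (horizontal), for all 12418 tested genes (grey) and the 10 tested rows of the members (red). Icam1 lies at 5.32 and 5.03 and Vcam1 at 4.63 and 2.93, while the other members lie nearer to 0.

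The genes whose pattern over the 4 libraries was closest to that of the most variable members were found by the root-mean-square difference of centred log2 CPM. For Icam1 these were Adora2a (0.154), Ppfia3 (0.174) and Tlr2 (0.182), and Tlr2 was counted 346 and 10528 times in WT and 417 and 11430 times in KO. For Vcam1 they were Tcp10b (0.128, at no more than 12 counts), Lox (0.176) and Micall2 (0.230). For Itgal they were Slc7a1, Slc6a12 and Plcd1, at 0.072, 0.072 and 0.074. These likenesses rest on 4 libraries only and are a description.

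Selplg, the selectin ligand PSGL-1, at chr5:113818536-113832644 on the minus strand, was measured at 221 and 175 CPM in WT and at 194 and 157 CPM in KO. It was lower in number 2 within both genotypes, to 0.792 of the level of number 1 in WT and 0.812 in KO. The genotypes overlapped, with a log2 fold change of -0.17 ± 0.26 (SE, 95% interval -0.83 to 0.48, adjusted p = 0.967, edgeR).

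By FPKM, the members fell into 3 tiers. Itgb2, at 351 to 432, stood above all others in every library. Itgax (47.7 to 81.5), Itgam over both rows (43.5 to 62.7) and Itgb7 (39.8 to 49.1) overlapped in range, and Selplg (27.4 to 37.7) lay just below Itgb7. Itgal (1.22 to 7.93), Itga4 (1.85 to 3.94) and Vcam1 (0.25 to 6.19) overlapped at the low end. Icam1 moved through the order, at 6.39 and 8.40 in the libraries numbered 1, below Selplg, and at 253 and 246 in those numbered 2, between Itgb2 and Itgax.

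The other genes of leukocyte adhesion were taken as 4 lists with 60 genes, of which 52 were tested and 0 called between the genotypes. Of these 52, 6 had an unadjusted p under 0.05, against 6.63% of all tested genes, and 5 of the 6 had a higher level in KO. The median log2 fold change of the 52 was 0.06, beside 0.04 over all tested genes. In the list of integrin activation and signalling, 27 of 29 genes were tested and 1 had an unadjusted p under 0.05: Fermt2, a kindlin widely expressed outside blood cells, at 2.03 and 2.51 CPM in WT and 9.39 and 8.48 CPM in KO (log2 fold change 1.97 ± 0.31 SE, adjusted p = 0.25, edgeR). Fermt3, the kindlin of leukocytes that acts on the beta2 tail, stood at 105 and 93.6 CPM in WT and 115 and 91.9 CPM in KO (log2 fold change 0.06 ± 0.24 SE, adjusted p = 0.990, edgeR). Both libraries numbered 2 lay above both numbered 1 for 15 of the 27 genes and below for 3, against 25.2% and 23.2% of all tested genes. Among them was Syk, a kinase that signals downstream of beta2 integrins, named here after its values were seen, at 246 and 863 CPM in WT and 303 and 802 CPM in KO.

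In the list of other adhesion ligands, 12 of 16 genes were tested and 4 had an unadjusted p under 0.05, with a median log2 fold change of 0.47 over the list. Fn1, which encodes the matrix protein fibronectin, was measured at 64.4 and 114 CPM in WT and at 226 and 224 CPM in KO (log2 fold change 1.33 ± 0.34 SE, adjusted p = 0.387, edgeR). Jam3, a junctional ligand of Mac-1, was counted 12 and 9 times in WT against 66 and 46 times in KO (adjusted p = 0.290, edgeR). Madcam1, the mucosal ligand of the Itga4 and Itgb7 pair, was counted 1 and 4 times in WT against 16 and 28 times in KO (adjusted p = 0.447, edgeR). Icam4 was counted 12 and 14 times in WT against 4 and 7 times in KO (adjusted p = 0.739, edgeR), and Icam2 had a log2 fold change of -0.86 (adjusted p = 0.755, edgeR). The summed stromal markers given above were higher in both KO libraries, as were Fn1, Jam3, Madcam1 and Fermt2, and their part in these differences was not tested.

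In the list of selectins and the enzymes that glycosylate PSGL-1, 12 of 13 genes were tested and Selp had an unadjusted p under 0.05, at 2.34 and 2.32 CPM in WT and 5.04 and 3.71 CPM in KO (log2 fold change 0.91 ± 0.34 SE, adjusted p = 0.718, edgeR). Both libraries numbered 2 lay below both numbered 1 for 6 of these 12 genes and above for 0, against 23.2% and 25.2% of all tested genes. DESeq2 called Fermt2 and Fn1, and edgeR's exact test called Fermt2 and Jam3, among the 52 tested genes of the lists, where these tests called 1.46% and 1.84% of all tested genes.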

How the data were processed

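Total RNA of 2 WT and 2 KO macrophage libraries was sequenced on an Illumina NovaSeq instrument. Per the submitters' processing notes and the study's methods, the authors filtered reads with Seqtk, aligned them with HISAT2 2.0.4 and counted fragments per gene with StringTie 1.3.3b. The deposited counts are whole numbers, not normalized, and the deposited FPKM values are those counts scaled to gene length and library size. The notes name mm39, but the loci match GRCm38 (27686 of 34745 rows have the same identifier, start and end as in GENCODE release 21), and coordinates are given as GRCm38. The strand setting was not given in the sources used here. Of the symbols, 59 name more than 1 row.

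Counts were tested with edgeR 4.0.16 (R 4.3.3): filterByExpr (minimum count 10), TMM factors and the quasi-likelihood test, two-sided, with Benjamini-Hochberg adjustment over 12418 genes. Calls needed a change of more than 2-fold besides an adjusted p below 0.05. The script was tested on simulated data. Ratios within a replicate number or genotype had 0.5 counts added. DESeq2 1.42.0, edgeR's exact test, other scalings and filters, a length correction, a replicate block and the omission of each library were tried. Chain ratios used FPKM. An upper limit for a count of 0 was taken as 3 counts. Genes named were the members, Itgb1, Itgae and G3bp1, up to 5 genes of smallest unadjusted p in each pathway list, and the 3 genes closest in pattern to each of the 3 most variable members. Fermt3, Syk, Cerkl, Tek, Lck, Pdgfrb and the other cell type markers lie outside this rule. The members and lists were chosen with earlier results of these data known.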

Additional observations from a re-analysis of the deposited data

How the results depend on the processing

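The count of 0 called members stayed 0 under DESeq2 size factors, DESeq2, the exact test, both other filters, the length correction, no minimum fold change and the omission of each library. With a replicate block it was 1, and with the block and the length correction 1, Itgam row 2 in both (log2 fold change -1.09, adjusted p = 9.18e-05, and -1.21, adjusted p = 0.00250). Itgam row 1 had 0.83 with the block (adjusted p = 0.00749), below the 2-fold minimum, and 0.67 with the block and length correction (adjusted p = 0.0534). The pathway lists had 0 called genes in the reported fit, 2 by DESeq2, 2 by the exact test, 5 with the replicate block and 5 with the block and length correction (Fermt2, Jam3, Madcam1, Fn1 and C3, the last named after its values were seen). Over all genes the calls were 0 in the reported fit, 181 by DESeq2, 229 by the exact test, 664 with the block and 401 with the block and length correction. The cause of these differences in calls was not tested. The labels do not say that the replicate number pairs the libraries. Deviations from the group mean correlated at 0.691 over genes between WT replicate 1 and KO replicate 1.

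Directions turned for values that were not called. Icam1 had 0.017 with the block and 0.048 with the block and length correction, and -4.20 to 4.21 with 1 library omitted (4.21 without WT replicate 2, 0.84 without KO replicate 1). Vcam1 had 0.30 with the block, 0.072 with the block and length correction, and -2.39 to 3.40 with 1 library omitted (3.40 without WT replicate 2, 0.56 without KO replicate 1). With 1 library omitted, Itgal ranged from -0.66 (without KO replicate 2) to 2.01, Itgb2 from -0.15 to 0.10 (without WT replicate 2), Itga4 from -0.0064 (without WT replicate 1) to 0.82, and Selplg from -0.37 to 0.0045 (without WT replicate 1). The sum of both Itgam rows had -0.082 with the length correction, -0.075 with the block and length correction, and -0.12 (without WT replicate 1) to 0.26 with 1 library omitted. Itgam row 1, Itgam row 2, Itgax and Itgb7 kept their direction in every alternative run, but their size moved with 1 library omitted. Itgam row 1 ranged from 0.54 (without WT replicate 2) to 1.12 (without WT replicate 1), against 0.82 with all libraries, and Itgb7 from -0.15 (without KO replicate 1) to -0.020 (without KO replicate 2), against -0.083. Itgam row 2 ranged from -1.82 (without KO replicate 2) to -0.38 (without WT replicate 2), against -1.11 with all libraries, and Itgax from 0.10 (without WT replicate 1) to 0.57 (without WT replicate 2), against 0.33. Rows not overlapping between the genotypes numbered 2 of 10 as reported. Of all tested genes, 20.0% had both KO values above both WT values in that scaling and 16.9% had both below. The rows numbered 3 with DESeq2 size factors (Itgb7 then lay lower in both KO libraries) and 2 with the length correction. The share of all tested genes was not computed for these 2 scalings. The mean alpha chain sum per Itgb2 in WT was 0.293 by FPKM, 0.363 by CPM and 0.225 by GENCODE exon lengths, the last a choice made after seeing the data, and the mean WT share of Itgax was 50.4%, 46.2% and 47.3%, and that of Itgam 46.6%, 48.8% and 49.0%. Where 1 library was omitted, the lone library was assumed to vary like the other group.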
